A study of Mus musculus and Homo sapiens with 15 samples.

Results

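C-to-U editing was examined in 9 mouse genes whose proteins bind microtubules or tie them to other parts of the cytoskeleton. They were Map1a, Map1b, Map2, Map4 and Mapt, which encode the classical microtubule-associated proteins, Macf1 and Dst, which encode giant cytolinkers, and Clasp1 and Clasp2, which encode proteins of the growing microtubule end. An edit cluster, a stretch of RNA in which the authors found more C-to-U changes than the surrounding transcript gave, belonged to a gene when its deposited label named that gene. An edited site belonged to the gene when it lay in such a cluster on the same strand. The 9 genes stood among 20838 genes named in the clusters of the 9 brain libraries, and 5651 of 1669120 clusters named one of them.

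On GRCm38 (mm10), the classical members are Map1a (chr2:121289600-121310832, plus strand), Map1b (chr13:99421446-99516540, minus), Map2 (chr1:66175273-66442583, plus), Map4 (chr9:109931460-110083955, plus) and Mapt (chr11:104231390-104332090, plus). Macf1 (chr4:123349633-123684360, minus) and Dst (chr1:33908225-34308661, plus) are the longest, at 334.7 and 400.4 kb. Clasp1 (chr1:118389058-118612678) and Clasp2 (chr9:113741473-113919682) are on the plus strand.

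INSCRIBE marks the RNA targets of a protein in fixed tissue. An antibody binds the protein, a nanobody fused to the deaminase APOBEC1 binds the antibody, and the enzyme changes nearby cytidines to uridines, which RNA sequencing reads as C-to-T changes. RBFOX2-INSCRIBE sections (n = 3 libraries) received the antibody to RBFOX2 and the enzyme, enzyme-only sections (n = 3) received the enzyme with no antibody, and buffer-only sections (n = 3) received neither. Each library came from 1 coronal slice of the brain of a female C57BL/6J wild-type mouse aged 2 months, and the slices of all groups came from at most 2 mice. The labels do not say which slice came from which mouse, so p-values measure the spread between slices. The sample titles name paraformaldehyde as the fixative of all 9 libraries, and slices fixed in methanol were not analysed here. RNA was taken from the whole section, so fewer cells of a type and less RNA per cell cannot be told apart.

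Microtubules are hollow polymers of tubulin that give neurons their shape and carry transport along axons and dendrites. Classical microtubule-associated proteins line the polymer and stabilise it, with tau (Mapt) known for axons and MAP2 for dendrites. The spectraplakins Macf1 and Dst join microtubules to actin and other filaments, and CLASP proteins hold on to microtubule plus ends. RBFOX2 is a splicing regulator that binds UGCAUG in RNA, often in introns beside alternative exons.

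Each brain library held 184429 to 321350 edited reads in clusters, with 279032 to 321350 in RBFOX2-INSCRIBE libraries, 253206 to 275004 in enzyme-only libraries and 184429 to 248917 in buffer-only libraries. Levels are therefore given as CPM, the edited reads of a gene divided by all edited reads in clusters of the same library and multiplied by 1000000. Sites with 1 edited read made up 88.4% to 91.3% of each library. Neuronal markers were edited in all 9 libraries. The 6 striatal markers summed to 1384 to 2129 CPM in RBFOX2-INSCRIBE libraries and 794 to 1070 CPM in enzyme-only libraries, and the 6 oligodendrocyte markers to 373.4 to 512.5 CPM in RBFOX2-INSCRIBE libraries and 620 to 632.7 CPM in enzyme-only libraries, and neither pair of ranges overlaps. The 6 astrocyte markers summed to 1738 to 1924 CPM in enzyme-only libraries and 1263 to 1378 CPM in buffer-only libraries, again without overlap. The part of these differences in the results below was not tested.

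The first sequence below is shown because a Map2 region called higher in RBFOX2-INSCRIBE begins within it. It runs from the last 35 bases of an annotated coding exon into the intron behind it, at chr1:66410785-66411084 on the plus strand of GRCm38 (mm10). The next sequences are the surroundings of the members' RBFOX2-INSCRIBE confident clusters with UGCAUG inside or within 50 nt, other than those already covered by the first. The confident lists used here hold the intersected clusters of all 3 libraries of a group, before the clusters of buffer-only sections were subtracted. A listed cluster can hold no filtered edited read in some library of its group, as the Macf1 cluster below does. All sequences are written 5′ to 3′ on the gene's strand with T for U, and capitals mark TGCATG and the cytidines that were edited. In the first sequence, only cytidines edited in at least 2 RBFOX2-INSCRIBE libraries are in capitals.
Map2 exon end and intron, chr1:66410785-66411084: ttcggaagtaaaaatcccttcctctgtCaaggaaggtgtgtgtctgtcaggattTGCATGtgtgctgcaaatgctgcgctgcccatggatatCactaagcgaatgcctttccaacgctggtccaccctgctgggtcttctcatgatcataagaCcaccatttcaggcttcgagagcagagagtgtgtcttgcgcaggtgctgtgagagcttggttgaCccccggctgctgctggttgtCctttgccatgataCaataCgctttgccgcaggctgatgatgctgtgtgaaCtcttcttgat
Map2 exonic cluster, chr1:66407247-66407312: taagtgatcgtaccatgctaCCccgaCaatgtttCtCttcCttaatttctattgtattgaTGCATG
Map2 intronic cluster, chr1:66419505-66419581: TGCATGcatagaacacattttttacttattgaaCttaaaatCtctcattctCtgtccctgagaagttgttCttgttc
Map1b intronic cluster, chr13:99489937-99490034: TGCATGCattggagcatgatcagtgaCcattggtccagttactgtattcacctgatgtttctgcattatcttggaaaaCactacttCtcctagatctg
Macf1 intronic cluster, chr4:123463275-123463334: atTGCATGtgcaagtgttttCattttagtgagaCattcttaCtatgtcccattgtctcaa
Clasp2 intronic cluster, chr9:113874728-113874795: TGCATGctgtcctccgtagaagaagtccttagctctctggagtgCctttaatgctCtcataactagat
Clasp2 intronic cluster, chr9:113879254-113879298: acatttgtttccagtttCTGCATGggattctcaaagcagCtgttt

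In the first Map2 sequence the TGCATG begins 20 nt after the last base of the exon, and 8 cytidines around it were edited in at least 2 RBFOX2-INSCRIBE libraries. In the Macf1 sequence and the second Clasp2 sequence the motif lies inside the cluster itself. In the others it lies between 1 and 48 nt from the cluster. The motif was searched on the strand of the RNA, and a match is a description of the letters and not a measured binding site.

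Of the edited reads of each library, 0.298% to 0.348% lay in the 9 members. Whether the antibody to RBFOX2 added edited reads to the members was asked by setting RBFOX2-INSCRIBE against enzyme-only libraries, and what the enzyme added by itself by setting enzyme-only against buffer-only libraries. In edgeR's quasi-likelihood test over 9546 genes (adjusted p under 0.05 for a call), 0 of the 9 members were called in the first comparison, in which 1.51% of all genes were called. In the second, 0 of 9 were called, and 0.346% of all genes were. DESeq2 called 0 of the 8 members that it gave an adjusted p in either comparison, and Map1a had none. At an unadjusted p under 0.05, 4 of 9 members passed in the first comparison (44.4%, against 12.4% of all genes), Map2 and Dst with more edited reads and Map1b and Clasp2 with fewer, and 0 of 9 passed in the second (10.4% of all genes). The value of Map1b rested in part on 1 cytidine whose reads in RBFOX2-INSCRIBE libraries the score filter removed, as given below. The members were chosen with earlier results of these data known, so their share is no test against that of all genes. The median log2 fold change of the members was -0.11 in the first comparison, beside -0.04 over all genes, and 0.10 in the second, beside -0.00 over all genes.

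**Figure D1:**
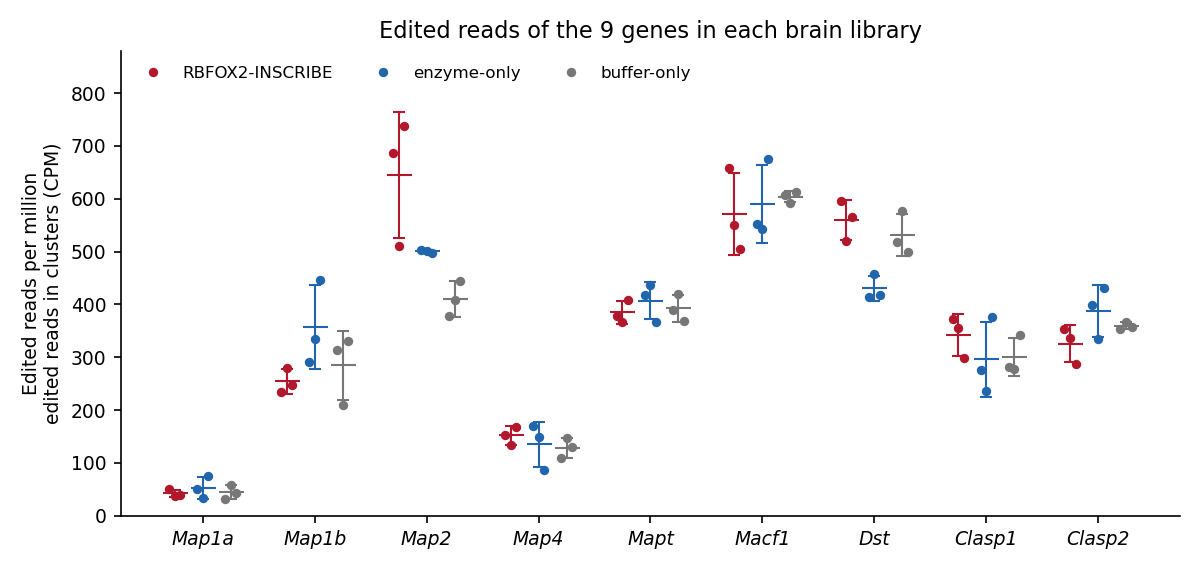
Edited reads of each member as CPM (linear axis) in the 9 brain libraries. Each point is 1 library, with the RBFOX2-INSCRIBE, enzyme-only and buffer-only groups side by side, the dash at the group mean and bars of 1 SD. Map2 lies between 510.3 and 738.3 CPM in RBFOX2-INSCRIBE libraries, above all enzyme-only and buffer-only libraries.

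Map2, whose protein binds dendritic microtubules, had 219, 164 and 206 edited reads in RBFOX2-INSCRIBE libraries, 131, 138 and 126 in enzyme-only libraries and 94, 78 and 82 in buffer-only libraries. As CPM these were 685.6, 510.3 and 738.3 in RBFOX2-INSCRIBE libraries, 502.5, 501.8 and 497.6 in enzyme-only libraries and 377.6, 408.7 and 444.6 in buffer-only libraries. The groups stood in that order with no overlap, although the second RBFOX2-INSCRIBE library came close to the enzyme-only libraries. The means were 645 ± 119 CPM in RBFOX2-INSCRIBE libraries, 501 ± 2.65 CPM in enzyme-only libraries and 410 ± 33.5 CPM in buffer-only libraries (SD, n = 3 each). The log2 fold change was 0.30 (SE 0.14, edgeR adjusted p = 0.347) for RBFOX2-INSCRIBE against enzyme-only and 0.30 (SE 0.16, adjusted p = 0.491) for enzyme-only against buffer-only libraries. Its 3′UTR held 18, 6 and 25 edited reads in RBFOX2-INSCRIBE libraries, 1, 2 and 7 in enzyme-only libraries and 1, 1 and 0 in buffer-only libraries, and the second RBFOX2-INSCRIBE library overlapped with the enzyme-only range. With 3 libraries against 3, the smallest exact permutation p is 0.1. Restricted to sites covered by at least 20 reads, the first comparison gave 0.89 (edgeR adjusted p = 0.0309). It was the only alternative of those run in which a member was called, and 6.02% of all genes were called at that setting (314 higher, 17 lower). That limit kept 99, 81 and 81 Map2 sites in RBFOX2-INSCRIBE libraries and 49, 49 and 47 in enzyme-only libraries. The mean cover of Map2 sites was also higher in RBFOX2-INSCRIBE libraries, as given below. The limit thus selected on a measure that differed between the groups, and this p describes sites chosen in that way. The direction turned with the cover of the edited sites as an offset, to -0.22 with mean cover and -0.63 with summed cover.

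Map1b, which encodes a microtubule-associated protein of growing axons, had 75, 90 and 69 edited reads in RBFOX2-INSCRIBE libraries, 76, 92 and 113 in enzyme-only libraries and 78, 40 and 61 in buffer-only libraries. Its CPM was 234.8, 280.1 and 247.3 in RBFOX2-INSCRIBE libraries, 291.5, 334.5 and 446.3 in enzyme-only libraries and 313.4, 209.6 and 330.8 in buffer-only libraries. RBFOX2-INSCRIBE libraries lay below all enzyme-only libraries, and buffer-only libraries overlapped with both groups. The separation rested on 1 cytidine of the 3′UTR, described below, whose reads in RBFOX2-INSCRIBE libraries were removed by the score filter. Without it, a setting chosen after seeing the data, enzyme-only libraries had 230.1, 269.1 and 375.2 CPM and overlapped with RBFOX2-INSCRIBE libraries, and the log2 fold changes were -0.26 (edgeR adjusted p = 0.581) for RBFOX2-INSCRIBE against enzyme-only and 0.036 (adjusted p = 0.972) for enzyme-only against buffer-only libraries. With it, the log2 fold change was -0.55 for RBFOX2-INSCRIBE against enzyme-only (SE 0.17, edgeR adjusted p = 0.0884) and 0.33 for enzyme-only against buffer-only libraries (SE 0.18, adjusted p = 0.522). Of all edited reads of Map1b, 11.5% lay in its 3′UTR, and these numbered 0, 2 and 4 in RBFOX2-INSCRIBE libraries, 17, 21 and 31 in enzyme-only libraries and 2, 3 and 0 in buffer-only libraries.

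The ranges of Map1a, Map4 and Mapt overlapped in both comparisons. Map1a, whose protein stabilises microtubules of mature neurons, had the fewest edited reads of the 9 genes, 8 to 19 per library, or 37.3 to 50.1 CPM in RBFOX2-INSCRIBE libraries, 32.7 to 75 CPM in enzyme-only libraries and 32.1 to 57.6 CPM in buffer-only libraries. Its log2 fold change was -0.36 (SE 0.40) for RBFOX2-INSCRIBE against enzyme-only libraries. Map4, the widely expressed relative of MAP2 and tau, had 133.8 to 168.4 CPM in RBFOX2-INSCRIBE libraries, 86.9 to 168.8 CPM in enzyme-only libraries and 108.5 to 146.7 CPM in buffer-only libraries, with a log2 fold change of 0.10 (SE 0.23) in the first comparison. Mapt was the steadiest of the members relative to its level, at 367.2 to 408.6 CPM in RBFOX2-INSCRIBE libraries, 367.3 to 436.4 CPM in enzyme-only libraries and 368.7 to 419.2 CPM in buffer-only libraries, with -0.15 (SE 0.15). Their log2 fold changes for enzyme-only against buffer-only libraries were 0.27 for Map1a, 0.10 for Map4 and 0.06 for Mapt.

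Of the cytolinkers, Dst had 190, 167 and 158 edited reads in RBFOX2-INSCRIBE libraries, 108, 126 and 106 in enzyme-only libraries and 129, 110 and 92 in buffer-only libraries. As CPM these were 594.8, 519.7 and 566.2 in RBFOX2-INSCRIBE libraries, 414.3, 458.2 and 418.6 in enzyme-only libraries and 518.2, 576.4 and 498.8 in buffer-only libraries. The enzyme-only libraries were the lowest, without overlap with either of the other groups, and the RBFOX2-INSCRIBE and buffer-only ranges overlapped. The log2 fold change was 0.31 (SE 0.14, edgeR adjusted p = 0.314) for RBFOX2-INSCRIBE against enzyme-only and -0.29 (SE 0.15, adjusted p = 0.481) for enzyme-only against buffer-only libraries. Macf1, the other spectraplakin, had 505.3 to 657.4 CPM in RBFOX2-INSCRIBE libraries, 541.8 to 675.3 CPM in enzyme-only libraries and 592.1 to 612.7 CPM in buffer-only libraries, with log2 fold changes of -0.11 (SE 0.14) and -0.03 (SE 0.14). These ranges overlapped.

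Clasp2 had 286.7 to 353.7 CPM in RBFOX2-INSCRIBE libraries, 334.5 to 430.5 CPM in enzyme-only libraries and 353.5 to 366.8 CPM in buffer-only libraries. Its log2 fold change for RBFOX2-INSCRIBE against enzyme-only libraries was -0.31 (SE 0.16, edgeR adjusted p = 0.401), and the groups overlapped. Clasp1 had 297.5 to 372.5 CPM in RBFOX2-INSCRIBE libraries, 236.4 to 375.2 CPM in enzyme-only libraries and 277.7 to 341.6 CPM in buffer-only libraries, again with overlap and a log2 fold change of 0.15 (SE 0.17). For enzyme-only against buffer-only libraries the log2 fold change was 0.12 for Clasp2 and -0.01 for Clasp1. Over all 9 members the CPM of RBFOX2-INSCRIBE and enzyme-only libraries did not overlap for 3 genes (Map2 and Dst higher, Map1b lower), where 18.0% of all genes did not overlap, and that of enzyme-only and buffer-only libraries for 2 (Map2 higher, Dst lower), where 14.9% of all genes did not. Without its 3′UTR cytidine, as given above, Map1b overlapped.

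**Figure D2:**
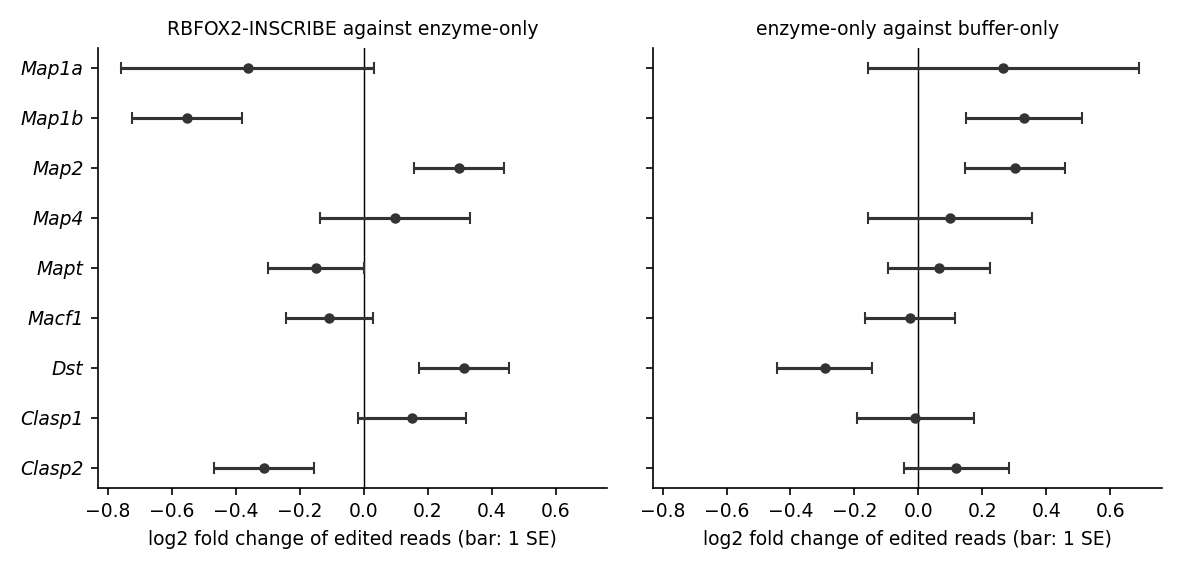
Log2 fold change of edited reads for each member, with the fit's standard error as the bar, in RBFOX2-INSCRIBE against enzyme-only and in enzyme-only against buffer-only libraries. Values run between -0.55 for Map1b and 0.31 for Dst in the first comparison, and no member was called in either.

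Set against gene length, the members spanned 90.8 to 392 CPM per 100 kb of gene. Mapt had 392 ± 26.1, Map1b 314 ± 73.8 and Map1a 219 ± 64.6 (SD over the 9 libraries). Clasp2 had 201 ± 22.8, Map2 194 ± 44.8, Macf1 176 ± 16.7 and Clasp1 140 ± 22.2. Dst had 127 ± 16.6 and Map4 90.8 ± 17.8, the lowest. Each gene overlapped with its neighbours in this order. Most edited reads lay in introns in Mapt (90.7%), Clasp2 (85.9%), Map1b (85.0%), Map2 (75.1%), Macf1 (73.0%), Dst (72.7%) and Clasp1 (63.5%). Map4 had 45.5% in introns, 26.5% in coding sequence and 28.0% in its 3′UTR, and Map1a had 43.9% in introns and 48.6% in its 3′UTR. Coding sequence held 24.5% of the edited reads of Macf1 and 22.3% of those of Dst.

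**Figure D3:**
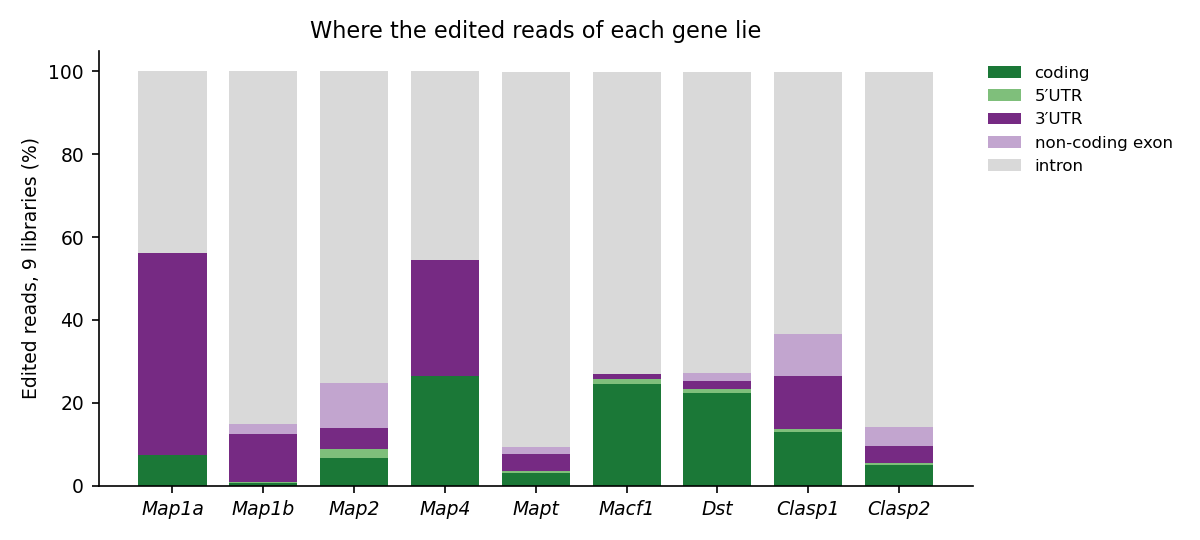
Edited reads of each member by the annotated part of the gene, as a share of the gene's edited reads over the 9 libraries. Introns hold 90.7% in Mapt and 43.9% in Map1a, whose 3′UTR holds 48.6%.

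Many labels name more than 1 gene, and why they do was not tested. Such labels held 85.0% of the edited reads of Map1b, 75.6% of those of Map2, 72.8% of those of Dst and 45.5% of those of Map4, and none of those of the other members. In Map1b and Map4 these shares equal the shares of edited reads in introns.

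Where within the genes the groups differed was asked by merging the clusters of all 9 libraries into regions. The members held 4045 regions, of which 2503 (61.9%) had 1 edited read and 8 had the 15 edited reads needed for the test. Of the 8, 2 were called in RBFOX2-INSCRIBE against enzyme-only libraries, 1 in Map2 with more edited reads and 1 in Map1b with fewer, while 1.22% of the 2381 regions tested were called. In enzyme-only against buffer-only libraries the Map1b region alone among the members was called, where 0.084% of all regions were. Both Map1b calls were made on counts with zeros set by the score filter. With every listed site counted the first call remained and the second was lost, as given below. The called Map1b and Map2 regions each entered the test through reads of the group where they are high, so their p-values describe chosen regions.

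The Map2 region lay in an intron at chr1:66410970-66411494 and begins 126 nt after the last base of the TGCATG in the printed sequence. It had 35, 15 and 36 edited reads in RBFOX2-INSCRIBE libraries, 1, 4 and 4 in enzyme-only libraries and 2, 0 and 2 in buffer-only libraries, over 43 edited sites. All RBFOX2-INSCRIBE libraries were higher than every other library, the second less so. The means were 95.1 ± 43.0 CPM in RBFOX2-INSCRIBE libraries, 11.4 ± 6.58 CPM in enzyme-only libraries and 6.29 ± 5.63 CPM in buffer-only libraries (SD, n = 3 each). The log2 fold change was 2.91 (SE 0.68, edgeR adjusted p = 0.0266) for RBFOX2-INSCRIBE against enzyme-only and 0.84 (adjusted p = 0.768) for enzyme-only against buffer-only libraries. Of the region's 99 filtered edited reads, 86 were in RBFOX2-INSCRIBE, 9 in enzyme-only and 4 in buffer-only libraries. The region thus reached the 15 reads needed through the group where it is high, and an RBFOX2-INSCRIBE confident cluster spans most of it. Its p-values, in every setting given here, describe a region chosen in that way. The call was lost without the third RBFOX2-INSCRIBE library (2.64, edgeR adjusted p = 0.176), without enzyme-only library 1 (2.5, 0.118), 2 (3.02, 0.0948) or 3 (3.18, 0.0948), and with cover of 20 reads or more (2.81, 0.0947). When every listed site was counted, without the filter on score and fraction, the region had 41, 20 and 36 edited reads in RBFOX2-INSCRIBE libraries, 2, 5 and 4 in enzyme-only libraries and 3, 2 and 3 in buffer-only libraries, with a log2 fold change of 2.91 (edgeR adjusted p = 1.62e-05), where 1.2% of all regions were called.

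Cover and edited percentage could be read only inside the clusters that each library had in the region, which held 95, 65 and 125 C positions in RBFOX2-INSCRIBE libraries, 12, 40 and 20 in enzyme-only libraries and 18 and 22 in the buffer-only libraries 1 and 3. The second buffer-only library had no cluster there. Clusters exist only where edits were found and their positions differ between libraries, so these values are not a comparison of the groups. The mean cover of those cytidines was 63.5, 64.0 and 48.8 reads in RBFOX2-INSCRIBE libraries, 42.9, 44.7 and 35.4 in enzyme-only libraries and 86.9 and 43.7 in buffer-only libraries. The edited percentage over them was 0.580%, 0.337% and 0.591% in RBFOX2-INSCRIBE libraries, 0.194%, 0.224% and 0.424% in enzyme-only libraries and 0.128% and 0.208% in buffer-only libraries.

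Single cytidines of the Map2 intron stood out within the region. The position with the most edited reads was chr1:66411042, with 6 of 82, 4 of 113 and 2 of 79 reads edited in RBFOX2-INSCRIBE libraries. It was not listed in any enzyme-only or buffer-only library. A site is listed only when it has at least 1 edited read, so its fraction in those libraries is unknown. The cytidine at chr1:66411037 had 2 edited reads in each RBFOX2-INSCRIBE library and was also listed nowhere else. The window around the first of them reads:
Map2 site 66411042: tgatacaataCgctttgccgc

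Upstream of it, the region at chr1:66410785-66410954, which holds the exon end and the TGCATG, had 11, 3 and 6 edited reads in RBFOX2-INSCRIBE libraries, 1, 1 and 1 in enzyme-only libraries and 0, 0 and 0 in buffer-only libraries. RBFOX2-INSCRIBE libraries were higher without overlap, and the log2 fold change of 2.31 was not called (edgeR adjusted p = 0.329). When clusters within 100 nt were merged, both Map2 regions became 1, with a log2 fold change of 2.81 (edgeR adjusted p = 4.97e-05). Most reads of both regions were in RBFOX2-INSCRIBE libraries, so this p too describes a region chosen through the group where it is high.

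**Figure D4:**
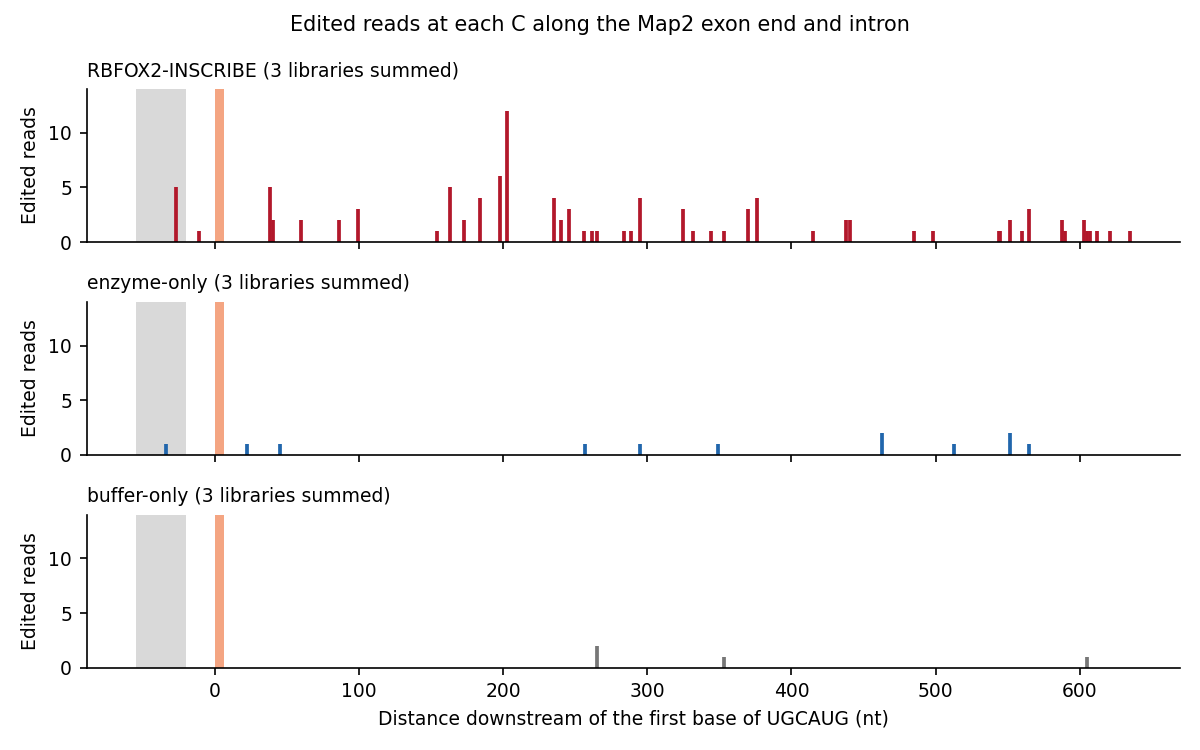
Edited reads per position, summed over the 3 libraries of each group, against the distance in nt from the first base of UGCAUG in the Map2 intron. The exon end is shaded grey and UGCAUG orange. The RBFOX2-INSCRIBE profile peaks at 12 edited reads at 203 nt, with a smaller peak of 6 at 198 nt and lower values on both sides of UGCAUG. The enzyme-only and buffer-only profiles stay lower than these peaks.

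The Map1b region held 1 site, a cytidine of the 3′UTR at chr13:99422947 on the minus strand, and its capital marks it in this window:
Map1b site 99422947: gtgatggccaCggagccgagc

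Among filtered sites it had 0, 0 and 0 edited reads in RBFOX2-INSCRIBE libraries, 16, 18 and 18 in enzyme-only libraries and 0, 0 and 0 in buffer-only libraries. It passed the score filter only in the enzyme-only libraries, so the filtered counts of the other groups were fixed at 0 and their p-values are not given. Before the filter, 6 of 858, 2 of 776 and 6 of 633 reads were edited in RBFOX2-INSCRIBE libraries, 16 of 744, 18 of 838 and 18 of 665 in enzyme-only, and 1 of 1038 and 1 of 752 in the first and second buffer-only libraries. The third buffer-only library did not list it. The scores of the site in RBFOX2-INSCRIBE libraries were 0.143, 0.00366 and 0.395, all below the minimum of 0.5. No fold is given from the filtered counts. As a percentage of reads, editing was 0.635 ± 0.350% in RBFOX2-INSCRIBE (SD, n = 3), 2.34 ± 0.322% in enzyme-only (SD, n = 3) and 0.115 ± 0.0259% in buffer-only sections (SD, n = 2), without overlap between any of the groups. With every listed site counted, the region had 9, 3 and 6 edited reads in RBFOX2-INSCRIBE libraries, 17, 19 and 20 in enzyme-only libraries and 10, 3 and 3 in buffer-only libraries, other cytidines included. The log2 fold change of the region for RBFOX2-INSCRIBE against enzyme-only libraries was -1.80 (SE 0.52, edgeR adjusted p = 0.0442). For enzyme-only against buffer-only libraries, a fit added after seeing the data, it was 1.37 (SE 0.53, edgeR adjusted p = 0.306), not called, where 0.372% of all regions were. The only filtered site of the region passed in enzyme-only libraries alone, so the group where it is high chose the region. Counting every listed site does not undo that choice. The percentages, folds and p-values here therefore describe a chosen region and are no independent test of it.

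A coding cytidine of Map2 at chr1:66413326 passed the filter in only some libraries, with 0, 0 and 0 edited reads in RBFOX2-INSCRIBE libraries, 9, 0 and 0 in enzyme-only libraries and 0, 12 and 7 in buffer-only libraries. It was listed before the filter in all 9 libraries, at 0.889 ± 0.131% in RBFOX2-INSCRIBE libraries, 0.860 ± 0.290% in enzyme-only libraries and 1.24 ± 0.380% in buffer-only libraries (SD, n = 3 each). The 3 groups overlapped. Its window reads:
Map2 site 66413326: aagaggaatcCtttaaactaa

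**Figure D5:**
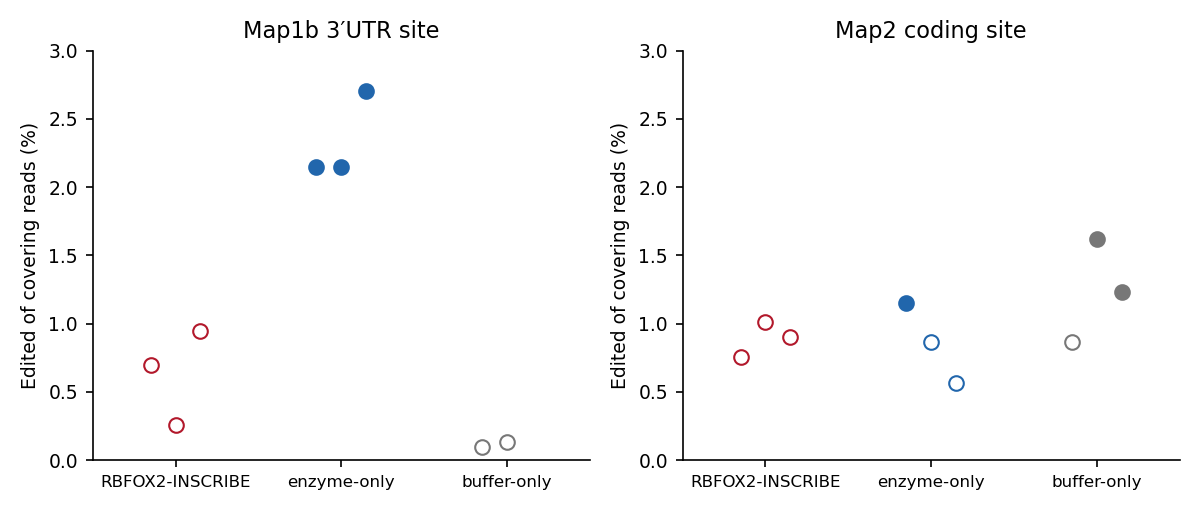
Percent of reads edited at recurring cytidines before the score filter. Each point is 1 library, given only where the library lists the site, and filled where the site passed the filter. At the Map1b 3′UTR site the enzyme-only libraries lie between 2.15% and 2.71% and the RBFOX2-INSCRIBE libraries between 0.258% and 0.948%, while at the Map2 coding site the 3 groups overlap.

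The remaining tested regions had few edited reads and were not called. They were a Clasp2 3′UTR region with 4, 2 and 0 edited reads in RBFOX2-INSCRIBE libraries, 5, 1 and 6 in enzyme-only libraries and 2, 0 and 1 in buffer-only libraries, a Clasp1 region with 9, 1 and 0 in RBFOX2-INSCRIBE libraries, 3, 0 and 1 in enzyme-only libraries and 1, 3 and 0 in buffer-only libraries, and 2 other Map2 regions. The Map2 region at chr1:66406212-66406496 had 1, 0 and 8 in RBFOX2-INSCRIBE libraries, 3, 0 and 6 in enzyme-only libraries and 0, 1 and 1 in buffer-only libraries, and that at chr1:66405827-66405901 had 0, 5 and 2 in RBFOX2-INSCRIBE libraries, 1, 2 and 3 in enzyme-only libraries and 0, 1 and 1 in buffer-only libraries. RBFOX2-INSCRIBE and enzyme-only libraries overlapped in all 4. The member region with the most edited reads among those not tested had 13.

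Positions edited in more than 1 library were rare. Of 6265 edited positions in the members, 6072 (96.9%) were found in 1 library, as were 96.7% of 1956700 positions over all genes. Another 176 were found in 2 libraries, 17 in at least 3 and 0 in all 9.

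The confident lists held 21 clusters of the members for RBFOX2-INSCRIBE, 14 for enzyme-only and 5 for buffer-only sections, where the whole lists held 5177 for RBFOX2-INSCRIBE, 4542 for enzyme-only and 2092 for buffer-only sections. Map2 had 9 clusters in the RBFOX2-INSCRIBE, 3 in the enzyme-only and 1 in the buffer-only list. Clasp2 had 4 in the RBFOX2-INSCRIBE list and 3 in the enzyme-only list, Macf1 had 3 in each of these, and Map1b had 1 in the RBFOX2-INSCRIBE list and 2 in the enzyme-only list. Map1a had no RBFOX2-INSCRIBE confident cluster, and Map4, Mapt, Dst and Clasp1 had 1 each. UGCAUG lay inside 2 of the 21 RBFOX2-INSCRIBE clusters (9.52%, beside 8.09% of the whole list) and within 50 nt of 8 (38.1%, beside 16.5%). The enzyme-only list had it inside 0 and within 50 nt of 0 of 14 member clusters (1.96% and 5.95% of the whole list), and the buffer-only list inside 0 and within 50 nt of 1 of 5 (1.1% and 4.45%). Of the 8 RBFOX2-INSCRIBE clusters near the motif, 4 were in Map2, and those that begin at chr1:66410785 and chr1:66410850 lay beside the same UGCAUG.

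The 2 clusters that hold the motif were in Macf1 and Clasp2 and rested on few reads. The Macf1 cluster, with a deposited score of 0.9996, had 1, 0 and 3 edited reads in RBFOX2-INSCRIBE libraries, 0, 0 and 0 in enzyme-only libraries and 1, 0 and 0 in buffer-only libraries. The Clasp2 cluster at chr9:113879254-113879298 had 1, 1 and 1 in RBFOX2-INSCRIBE libraries, 0, 0 and 1 in enzyme-only libraries and 0, 0 and 1 in buffer-only libraries. Differences at this depth were not detectable. The highest-scoring RBFOX2-INSCRIBE cluster was the intronic one in Map2 described above, with a score of 1, and those of Clasp1, Clasp2, Dst, Map1b, Map4 and Mapt had scores of 0.902 to 0.940 and 1 edited read in each library that showed any among RBFOX2-INSCRIBE libraries.

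Sequence context was compared over all edited sites of the members. The share within 50 nt of UGCAUG was 6.94%, 5.03% and 7.85% in RBFOX2-INSCRIBE libraries, 3.97%, 4.48% and 4.92% in enzyme-only libraries and 5.01%, 4.11% and 4.10% in buffer-only libraries. RBFOX2-INSCRIBE libraries were higher, with the second close to the others. Over all genes the shares were 5.59% to 6.05% in RBFOX2-INSCRIBE libraries, 3.72% to 3.89% in enzyme-only libraries and 3.64% to 3.78% in buffer-only libraries. Clasp2 had 14.4%, 10.1% and 13.2% in RBFOX2-INSCRIBE libraries, against 8.51%, 8.54% and 5.21% in enzyme-only libraries. These did not overlap, and the exact two-sided permutation p of 0.1 is the smallest possible. Clasp2 was the only 1 of the 9 members without overlap in this share and is named for that reason. The share of all genes without overlap is not given for this measure, so this count is not a result about the members.

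An A or T before the edited C, a context APOBEC1 is known to prefer, was found at 68.1%, 65.7% and 69.4% of member sites in RBFOX2-INSCRIBE libraries, 63.7%, 63.5% and 63.4% in enzyme-only libraries and 53.2%, 53.2% and 52.9% in buffer-only libraries. With the sites of all members pooled, the 3 groups did not overlap, in the order RBFOX2-INSCRIBE, enzyme-only, buffer-only. Taken singly, only Map4 of the 9 members did not overlap between RBFOX2-INSCRIBE and enzyme-only libraries. Between enzyme-only and buffer-only libraries 4 of 9 did not overlap, all higher in enzyme-only libraries. The share of all genes without overlap is not given here, so these counts are not a result about the members. Over all sites the shares were 61.5% to 65.8% in RBFOX2-INSCRIBE libraries, 61.0% to 63.2% in enzyme-only libraries and 51.8% to 52.5% in buffer-only libraries. There the RBFOX2-INSCRIBE and enzyme-only ranges overlapped, and both lay above the buffer-only range.

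The edit percentage of Map2 sites, the edited share of reads over its filtered sites, was 3.43%, 3.59% and 2.91% in RBFOX2-INSCRIBE libraries, against 3.93%, 4.76% and 3.93% in enzyme-only libraries. These did not overlap, and the mean cover of those sites was 38.0, 32.6 and 47.5 reads in RBFOX2-INSCRIBE libraries, against 29.5, 22.5 and 31.1 in enzyme-only libraries. With every listed site the direction of the means turned and the groups overlapped (1.15%, 1.11% and 1.20% in RBFOX2-INSCRIBE libraries, against 1.01%, 0.954% and 1.23% in enzyme-only libraries). At a cover of 20 or more they also overlapped (2.57%, 2.70% and 2.09% in RBFOX2-INSCRIBE libraries, against 2.24%, 2.57% and 2.49% in enzyme-only libraries), so no difference in edit percentage held across the choices of sites. Clasp1 had 5.77%, 5.59% and 5.33% in RBFOX2-INSCRIBE libraries, against 3.49%, 5.22% and 4.86% in enzyme-only libraries, without overlap. Its mean cover was 19.3, 19.2 and 20.5 reads in RBFOX2-INSCRIBE libraries, against 32.7, 22.7 and 23.8 in enzyme-only libraries, and with every listed site or at a cover of 20 or more its edit percentages overlapped. Only sites with an edited read are listed, so these percentages are taken over edited sites, and a site with 1 edited read has a lower percentage where its cover is higher. Map2 (lower) and Clasp1 (higher) were the 2 of 9 members without overlap between RBFOX2-INSCRIBE and enzyme-only libraries. Between enzyme-only and buffer-only libraries 3 of 9 did not overlap, 1 higher and 2 lower. The share of all genes without overlap is not given for this measure, so these counts are not a result about the members.

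Of 68 other genes of the microtubule system, 52 could be tested. In RBFOX2-INSCRIBE against enzyme-only libraries 0 were called higher and 1 lower, where 1.51% of all genes were called. At an unadjusted p under 0.05, 8 of the 52 passed, beside 12.4% of all genes. The median log2 fold change of the 52 was -0.12. The gene called was Dpysl3, a collapsin response mediator protein of growing neurites, with 15, 13 and 15 edited reads in RBFOX2-INSCRIBE libraries, 29, 23 and 26 in enzyme-only libraries and 19, 14 and 8 in buffer-only libraries. RBFOX2-INSCRIBE libraries were lower than all enzyme-only libraries (log2 fold change -1.14, SE 0.32, edgeR adjusted p = 0.0477), and the call was lost in every fit that left out 1 library, with every listed site, with a replicate block and under 5 other settings. The next by p were the tubulin Tubb2a (-0.68, adjusted p = 0.125), the tubulin deglutamylase Agtpbp1 (0.49, adjusted p = 0.157) and the tau kinase Mark3 (-0.51, adjusted p = 0.201) in edgeR. In enzyme-only against buffer-only libraries 0 of 52 were called (0.346% of all genes), with 6 at an unadjusted p under 0.05 (10.4% of all genes). The tau kinase Ttbk2 came closest, with 62, 38 and 72 edited reads in RBFOX2-INSCRIBE libraries, 52, 75 and 49 in enzyme-only libraries and 21, 17 and 36 in buffer-only libraries (log2 fold change 0.90, edgeR adjusted p = 0.0886), and was called without the third buffer-only library (1.37, adjusted p = 0.0189). Gsk3b (0.59), Ttbk1 (0.59) and Mtus2 (-0.53) followed.

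The genes whose levels followed those of Mapt, Macf1 and Dst most closely were found by Pearson's r of log2(CPM + 1) over the 9 libraries, among 9545 genes, which share the depth of those libraries. For Mapt they were Micos10 (0.93), Ccn2 (0.92), Sec16a (0.89), Pgr (0.88) and Hrh2 (0.88). For Macf1 they were Zc3h3 (0.91), Sh3glb2 (0.91), Csnk1a1 (0.89), Rnf139 (0.88) and Lpgat1 (0.88). For Dst the closest were Gm37354, Mir6896 and Gm38157 (0.96 each), which had 99.4% to 100% of their edited reads in labels that also name Dst, then Gm25447 (0.92) and Gm42515 (0.88). With 9 libraries and so many genes, values of this size are a description. The member nearest to Macf1 was Clasp2 (0.70), to Mapt Map4 (0.59) and to Dst Map4 (0.35).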

How the data were processed

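The 9 brain libraries were analysed, and HEK293XT libraries were not used here. Per the submitters' processing notes and the study's methods, the authors trimmed reads with cutadapt, aligned them with STAR (2.5.2 for mouse) to mm10, called C-to-U sites with SAILOR and called clusters of sites with FLARE (windows at a false discovery rate of 0.1, merged within 15 nt). The deposited site lists give counts of edited and of covering reads, the fraction edited and a confidence score. The deposited cluster lists give each cluster's score, its depth of reads (a signal) and, among the other values, the adjusted p of merged windows. The authors intersected the clusters of 3 replicates and subtracted buffer-only clusters. The lists before the subtraction were used, and the cleaned lists gave the same member counts for RBFOX2-INSCRIBE (21) and enzyme-only (14). No deposited value is normalised, and 0 columns of sample values were left unused.

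Sites were filtered on score (over 0.5) and on fraction edited (under 0.8), which left 2029726, of which 1913527 lay in clusters. All 2029003 with a base in GRCm38 were a C on their strand. Edited reads were summed per gene and tested with edgeR 4.0.16 (quasi-likelihood, TMM, filterByExpr, all 9 libraries in 1 fit, Benjamini-Hochberg over all genes) in R 4.3.3. Regions needed 15 edited reads. Alternatives included DESeq2 1.42.0. Tables were made with Python 3.11.15, pandas 2.3.3 and numpy 2.4.6, and scripts were tested on simulated data. A label with several genes counted for each. Members and lists were chosen with earlier results of these data known. Named were all members, the microtubule genes called or among the 4 smallest p, the called or 5 largest member regions, the confident clusters with UGCAUG or the highest score per member, and the 5 genes most like Macf1, Dst and Mapt. The single Map2 positions were chosen after their values were seen.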

Additional observations from a re-analysis of the deposited data

Results flagged for a closer look

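At the Map1b 3′UTR cytidine on chromosome 13, the RBFOX2-INSCRIBE libraries held 14 edited reads together that fell below the score minimum and so entered no test of filtered sites, beside 2 such reads in buffer-only libraries. Chance was not assessed for this count, and the cause was not tested.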

How the results depend on the processing

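The members' gene calls did not change except for Map2 at a cover of at least 20, but counts over all genes did. For RBFOX2-INSCRIBE against enzyme-only libraries, 144 genes were called (123 higher, 21 lower), and 243 with every listed site, 331 at a cover of at least 20 (314 higher, 17 lower), 63 with genes from the annotation, 0 with mean cover as offset, 12 with summed cover as offset, 65 with DESeq2's Wald test and 56 to 146 leaving out 1 library. For enzyme-only against buffer-only libraries, 33 were called (24 higher, 9 lower), and 148 with every listed site, 585 at a cover of at least 20 (66 higher, 519 lower), 4 with edited sites counted, 0 with mean cover as offset, 65 with summed cover as offset, 56 with DESeq2 (10 higher, 46 lower) and 13 to 34 leaving out 1 library. Regions called in the first comparison were 29, and 100 with every listed site, 171 merged within 100 nt, 45 with DESeq2's size factors, 19 with only 2 groups and 13 to 36 leaving out 1 library. The motif count of 2 clusters was 8 within 50 nt and 11 within 200 nt. Libraries of different groups with the same replicate number had correlations of -0.083 to 0.090, beside -0.15 to 0.147 for different numbers. Values this low do not show whether a number marks a shared animal or slide. A replicate block gave 128 and 26 genes and 37 regions.
Log2 fold changes that changed sign were, for RBFOX2-INSCRIBE against enzyme-only libraries, Map1a with every listed site (0.036), Map2 with mean (-0.22) and summed cover (-0.63) as offset, Map4 at cover 20 (-0.054) and with summed cover (-0.11), Macf1 with the annotation (0.016) and mean cover (0.15), Dst with summed cover (-0.42) and Clasp1 at cover 20 (-0.048). For enzyme-only against buffer-only libraries they were Map1a (-0.047), Map2 (-0.33), Ttbk2 (-0.47) and Ttbk1 (-0.53) with summed cover, Map1b with mean (-0.39) and summed cover (-0.77), Map4 with edited sites (-0.19), mean (-0.89) and summed cover (-1.02), Mapt at cover 20 (-0.12), with the annotation (-0.042) and summed cover (-0.14), Macf1 at cover 20 (0.12), Clasp1 with mean cover (0.016), Clasp2 at cover 20 (-0.031) and with summed cover (-0.49), and Gsk3b with mean (-0.13) and summed cover (-0.91). Summed cover moved the median of all genes to -0.34 and -0.26. The Map2 region at 66405827 gave 0.24 with every listed site, 0.023 with DESeq2's size factors and 0.45 merged, and that at 66406212 gave 0.45 merged. Leaving out 1 library gave Map4 -0.12 to 0.32 and Macf1 -0.20 to 0.016 in the first comparison, Map1a -0.085 to 0.52, Map4 -0.10 to 0.32, Macf1 -0.14 to 0.033 and Clasp1 -0.22 to 0.13 in the second, and the regions at 66405827 -1.19 to 0.56, at 66406212 -2.60 to 0.68 and in Clasp1 -1.38 to 2.17. The causes were not tested. Of 54 edit percentages, 53 moved by over 1 SD with another choice of sites. At 88.4% to 91.3% of sites with 1 edited read, depth limits single positions.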
